A study of Arabidopsis thaliana with 10 samples.

Results

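The plastid genome is represented in these data by 133 loci, chosen by their locus codes, which begin with ATC, out of 32824 loci in the table of expression values. Transcripts were measured by RNA-seq in shoots of Arabidopsis thaliana, with 5 libraries from the wild type Col-0 (WT) and 5 from 1 transgenic line (OE). In this line BnaC02.TPS8, an oilseed rape gene named for trehalose-6-phosphate synthesis, stands behind the 35S promoter, which drives expression in nearly all plant tissues. All plants grew for 10 days on agar with ½MS salts and 1% sucrose, and the treatment of both groups is labelled as normal. The sample titles name the line OE-11 and the series description names it O2, so the identity of the line is unclear. The libraries are called WT 1 to WT 5 and OE 1 to OE 5 after the numbers in their titles. Whether the plants of a group came from separate cultures is not stated, so the p-values measure only the spread between these samples, which may be technical.

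Plastids keep a small circular genome of bacterial origin. It encodes core subunits of the photosystems, the cytochrome b6f complex, the ATP synthase, an NADH dehydrogenase-like complex and the large subunit of Rubisco, together with plastid ribosomal RNAs, transfer RNAs, ribosomal proteins and a bacterial-type RNA polymerase. The nucleus encodes the remaining subunits of these complexes, the sigma factors that direct the plastid polymerase, and a phage-type plastid polymerase. In most flowering plants part of the plastid genome is present as an inverted repeat, so that the genes in it exist in 2 copies. Plastid transcripts in green tissue carry poly(A) tails mainly as a mark for degradation, and their share in an RNA-seq library depends on how the RNA was selected. The labels give total RNA and a library kit, and they do not state how the RNA was selected.

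Expression was given by the authors as FPKM, that is, fragments divided by transcript length and library depth, so levels of different loci are compared per length. The values summed to between 918877 and 996313 FPKM per library. The table holds no counts. From the smallest steps between low values, the libraries were estimated at 1.82e+07 to 2.33e+07 fragments when fragments are taken as 200 nt long, at which 1 FPKM on 1000 nt stands for 14.6 to 18.7 fragments. The green tissue was checked by nuclear genes. The chlorophyll-binding protein gene LHCB1.3 (AT1G29930) had the highest mean of all loci (31516 FPKM) and the Rubisco small subunit gene RBCS1A (AT1G67090) the second highest (21363 FPKM). The transgene has no locus of its own in the table. The Arabidopsis TPS8 gene (AT1G70290) had a mean of 83.7 ± 12.5 FPKM in the WT libraries and 41.9 ± 10.3 FPKM in the OE libraries (SD, n = 5 each), and every OE library lay below every WT library.

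The sources used here pair only 6 of the 133 plastid codes with a product, in notes of the RefSeq annotation of TAIR10.1. These are ATCG00430 (photosystem II reaction center protein G), ATCG00530 (CemA-like proton extrusion protein), ATCG00660 (ribosomal protein L20), ATCG00670 (the plastid-encoded protease subunit ClpP), ATCG00750 (ribosomal protein S11) and ATCG01310 (ribosomal protein L2). The other 127 are given by code alone, with no gene name, role or sequence.

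Most plastid loci had low values. Of the 133, 47 were at 0 in all 10 libraries, 9 were above 0 in 1 library only, 19 in 2 to 9 libraries, and 58 in all 10. Among these 58, 8 loci had a mean of at least 100 FPKM, from 213 to 3142 FPKM, and 50 had a mean under 100 FPKM, from 0.0862 to 36.8 FPKM. Between 66 and 75 plastid loci were above 0 per library. A mean of at least 1 FPKM over the 10 libraries, the limit for the tests below, was met by 57 of the 133: all 8 high loci, 36 of the 50 lower ones, 9 of the 19 and 4 of the 9.

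The most abundant plastid loci with values in all libraries were ATCG00960 and ATCG01170, which had identical values. Their level was 1376, 2913, 4991, 4036 and 1734 FPKM in WT 1 to WT 5 and 1105, 3705, 2423, 6236 and 2902 FPKM in OE 1 to OE 5. The lowest and the highest library were both OE, and the groups overlapped over the whole WT range. With a mean of 3142 FPKM these loci were 32nd among all 32824 loci.

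ATCG00970 and ATCG01160, again identical to each other, were at 713, 1750, 3525, 1812 and 1669 FPKM in WT 1 to WT 5 and at 580, 1269, 622, 5993 and 1443 FPKM in OE 1 to OE 5. OE 4 stood far above the other 4 OE libraries, which lay within or below the WT range. The level of ATCG00960 was 1.04 times that of ATCG00970 in OE 4 and in WT 5 and 3.90 times in OE 3, so the 2 loci did not keep a fixed ratio.

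ATCG00920 followed at 224, 194, 378, 287 and 134 FPKM in WT and 157, 302, 182, 749 and 401 FPKM in OE, in the order of the replicate numbers. ATCG00950 was at 128, 145, 299, 172 and 90.4 FPKM in WT and 83.9, 175, 133, 657 and 252 FPKM in OE. In both, OE 4 and OE 5 were the 2 highest OE libraries and WT 3 the highest WT library. Their near-copies ATCG01210 and ATCG01180 differed from them by under 5% in each library.

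In all, 11 pairs of plastid loci had values equal within 5% in every library and above 0 in at least 1, and in 8 pairs the values were identical. As the first code of a pair rises, from ATCG00830 to ATCG00990, the second falls, from ATCG01310 to ATCG01140. In the RefSeq plastid genome of TAIR10.1, 154478 nt long, an inverted repeat of 26264 nt is present in opposite orientation at positions 84171 to 110434 and 128215 to 154478, and the gene for ribosomal protein L2, the product noted for ATCG01310, has a copy in each. Fragments of identical copies cannot be assigned to 1 of them. The 2 loci of a pair therefore count as 1 measurement, and all 8 high loci belong to such pairs.

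The lower loci were led by ATCG00020, with a mean of 36.8 FPKM and rank 3330 among all loci. Its values were 24.0, 33.2, 40.5, 32.4 and 26.0 FPKM in WT 1 to WT 5 and 9.21, 25.6, 26.8, 108 and 42.0 FPKM in OE 1 to OE 5. OE held both extremes, with OE 1 below and OE 4 above all WT libraries. ATCG00470 followed with a mean of 25.6 FPKM and ATCG00490 with 22.6 FPKM. ATCG00490 showed the same extremes as ATCG00020, at 7.44 FPKM in OE 1 and 63.4 FPKM in OE 4, against 12.3 to 24.6 FPKM in WT.

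The summed plastid FPKM differed 10.3-fold between libraries. It was 5116, 37844, 18742, 42617 and 7478 in WT 1 to WT 5 and 4126, 11120, 6996, 27925 and 13909 in OE 1 to OE 5. As a share of all FPKM of the library this was 0.552, 3.98, 2.01, 4.28 and 0.814% in WT and 0.442, 1.20, 0.742, 2.90 and 1.44% in OE. The share averaged 2.33% ± 1.74 over the WT libraries and 1.34% ± 0.952 over the OE libraries (SD, n = 5 each). The groups overlapped, and the difference between the means, −0.98 percentage points, was smaller than the SD of WT. The sign of this difference depended on the loci summed: over loci above 0 in all libraries it was 0.116 percentage points. A share in a bulk sample also cannot tell fewer plastid-rich cells from less plastid RNA per cell.

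**Figure D1:**
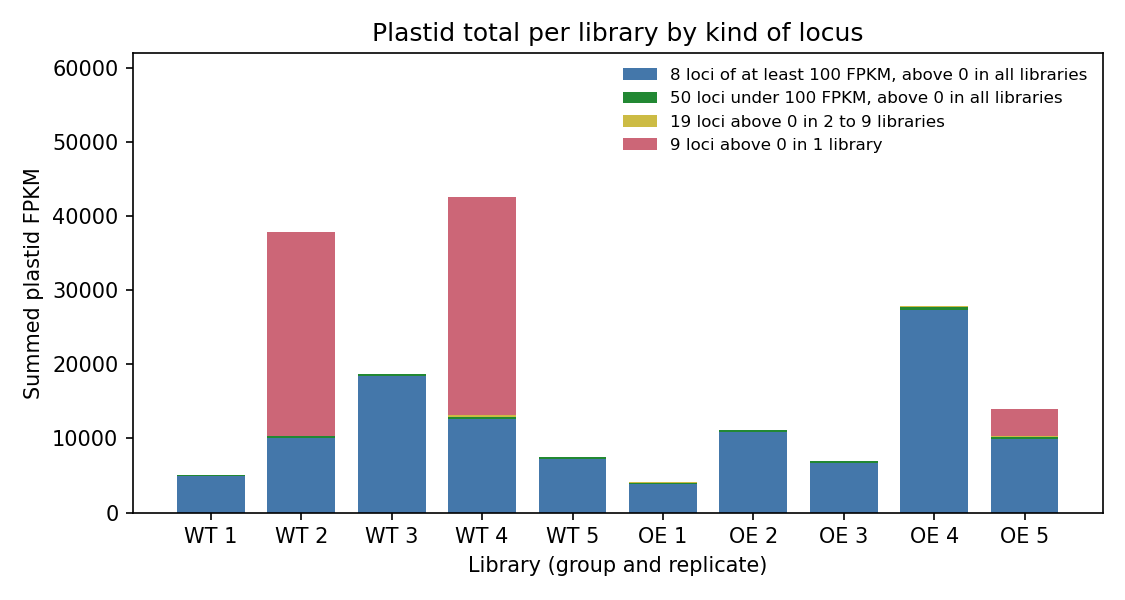
Summed plastid FPKM (y axis, linear from 0) in each of the 10 libraries (x axis), stacked by 4 kinds of loci. The red part, the 9 loci above 0 in 1 library only, makes up 72.8% of the plastid total of WT 2, 69.1% of that of WT 4 and 26.1% of that of OE 5, and the blue part is the 8 high loci.

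The 2 highest totals came from loci seen in no other library. ATCG00010 was at 27532 FPKM in WT 2 and at 0 in the other 9 libraries, and alone made up 72.8% of the plastid total of WT 2. ATCG00990 and ATCG01140, a pair with identical values, were at 14718 FPKM each in WT 4 and at 0 elsewhere, 34.5% of that library's plastid total each. ATCG00090 was at 3625 FPKM in OE 5 alone, 26.1% of its plastid total. The remaining 5 loci of this kind reached 1.91 to 9.23 FPKM.

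At the estimated depth the value of ATCG00010 stands for 501 fragments per nucleotide of effective length, and that of ATCG00990 for 271. The lengths that the authors used for the plastid loci were not known. Values of this pattern, at least 1000 FPKM in 1 library and 0 in the other 9, were found in 4 of the 133 plastid loci, in 0 of 152 mitochondrial loci and in 5 of 32539 nuclear loci. RefSeq lists 2 of these nuclear loci as tRNA genes, 2 as snoRNA genes and 1 as an antisense RNA gene. The 2 tRNA loci had the same value in OE 3, 13134 FPKM, as ATCG00990 and ATCG01140 had in WT 4. The loci of such a pair may not be separate measurements, so the counts of 4 and 5 may be too high. In the RefSeq plastid genome 53 of 129 genes have exons of under 150 nt in sum, among them all 37 tRNA genes. Which of these the 4 plastid loci are cannot be given from the codes, and the part of transcript length in their values was not tested.

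Without the loci absent from some libraries the picture of the totals changed. The 58 loci above 0 in all libraries summed to 5096, 10272, 18634, 12866 and 7465 FPKM in WT and to 4016, 11106, 6949, 27799 and 10242 FPKM in OE, a 6.92-fold range. OE 4 was now highest and WT 3 second, whereas WT 2, second over all plastid loci, was below WT 3, WT 4 and OE 2. These loci made up 1.15% ± 0.552 of all FPKM over the WT libraries and 1.26% ± 0.955 over the OE libraries (SD, n = 5 each). The difference between these means, 0.116 percentage points, had the opposite sign to that over all plastid loci and was smaller than both of these SDs.

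The spread of the plastid total within the groups, measured as the covariance of each locus with the total over the variance of the total, rested on few loci. The 9 loci above 0 in 1 library carried 67.4% of it, nearly all of that (67.1%) from ATCG00010, ATCG00990 and ATCG01140. The 8 high loci carried 31.7%, the 50 lower loci 0.442% and the 19 loci above 0 in 2 to 9 libraries 0.426%. Among the 58 loci present in all libraries, the high loci carried 98.8%, with 89.8% from the 4 loci ATCG00960, ATCG01170, ATCG00970 and ATCG01160.

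Most lower loci had their maximum in the same library. OE 4 was the highest library for 46 of the 58 loci (79.3%), against 15.6% of 17365 nuclear genes above 0 in all libraries and tested. Counts over the 58 include both loci of each copied pair and 14 loci with means too low to be tested. The ratio of OE 4 to the median of the other 9 libraries was 2.15 to 4.54 (median 3.75) over the 8 high loci and 0.631 to 5.27 (median 2.26) over the 50 lower loci. OE 1 was the lowest library for 19 of the 58 loci (32.8%), against 9.11% of those nuclear genes. The estimated depth was 2.01e+07 fragments for OE 4 and 2.15e+07 for OE 1, both within the range of the other libraries.

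The sum of the 50 lower loci was 215, 271, 250, 253 and 213 FPKM in WT 1 to WT 5 and 163, 206, 228, 530 and 250 FPKM in OE 1 to OE 5. The WT libraries lay within a narrow range, and OE 4 was far above all others. The mean sum was 240 ± 25.4 FPKM in WT, against 275 ± 146 FPKM in OE (SD, n = 5 each), and 212 ± 36.8 FPKM in OE without OE 4 (n = 4).

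**Figure D2:**
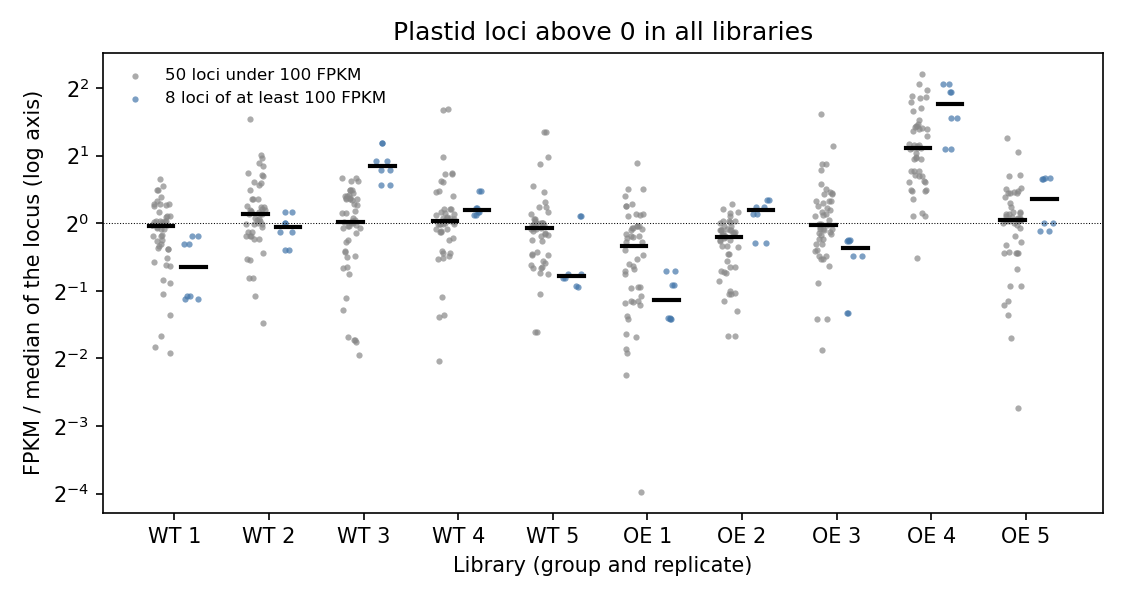
FPKM of each plastid locus above 0 in all libraries, divided by its median over the 10 libraries (y axis, log scale), by library (x axis). Grey points are the 50 loci under 100 FPKM, blue points the 8 loci of at least 100 FPKM and bars the medians; OE 4 lies above the line at 1 for nearly all loci, and the median of the blue points is lowest in OE 1.

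The coefficient of variation over the 10 libraries had a median of 51.0% over the 58 plastid loci, against 14.3% over the nuclear genes above 0 in all libraries and tested. Those nuclear genes all have a mean of at least 1 FPKM, whereas 14 of the 58 plastid loci do not. It was under 25% for 7 loci. The steadiest were ATCG00830 (10.6%) and its partner ATCG01310 (10.7%), the locus of ribosomal protein L2. The most variable of the 50 lower loci was ATCG00530 (93.0%), the CemA-like locus.

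The 6 loci with a known product were all low. ATCG01310, for the large ribosomal subunit protein L2, was at 9.32, 10.4, 9.64, 9.48 and 9.56 FPKM in WT and 10.3, 8.58, 9.50, 10.3 and 7.03 FPKM in OE. Its group means were 9.69 ± 0.435 and 9.15 ± 1.38 FPKM (SD, n = 5 each), and OE 4 did not stand apart. ATCG00670, for ClpP, the proteolytic subunit of the stromal Clp protease, was at 10.1, 12.6, 7.67, 13.2 and 12.6 FPKM in WT and 11.4, 11.8, 9.83, 15.6 and 12.5 FPKM in OE. OE 4 was highest here by a small margin over WT 4.

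ATCG00430, noted as photosystem II protein G, a name that was later replaced when the protein was assigned to the plastid NADH dehydrogenase-like complex, was at 1.90, 2.41, 3.20, 3.17 and 2.39 FPKM in WT and 2.64, 2.24, 1.94, 2.67 and 1.76 FPKM in OE. The groups overlapped and no library stood apart. ATCG00530, for an inner envelope protein related to proton extrusion, was at 0.869, 1.60, 0.503, 5.16 and 1.62 FPKM in WT and 0.103, 0.890, 4.91, 7.44 and 3.33 FPKM in OE. Within WT, WT 4 was far above the others, and within OE the values ran from the lowest to the highest of all 10.

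The other 2 ribosomal protein loci were near 1 FPKM. ATCG00660, for the large-subunit protein L20, was at 1.04, 1.75, 1.61, 0.613 and 0.931 FPKM in WT and 0.871, 0.799, 1.21, 0 and 1.44 FPKM in OE. It was listed at 0 in OE 4, the library with the highest values for most plastid loci. ATCG00750, for the small-subunit protein S11, was at 1.02 ± 0.540 FPKM in WT, against 0.823 ± 0.378 FPKM in OE (SD, n = 5 each), and its mean of 0.922 FPKM kept it out of the tests. It was the locus with the lowest ratio of OE 4 to the median of the other libraries, 0.631, among the 58. In none of the 3 ribosomal protein loci was OE 4 the highest library.

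**Figure D3:**
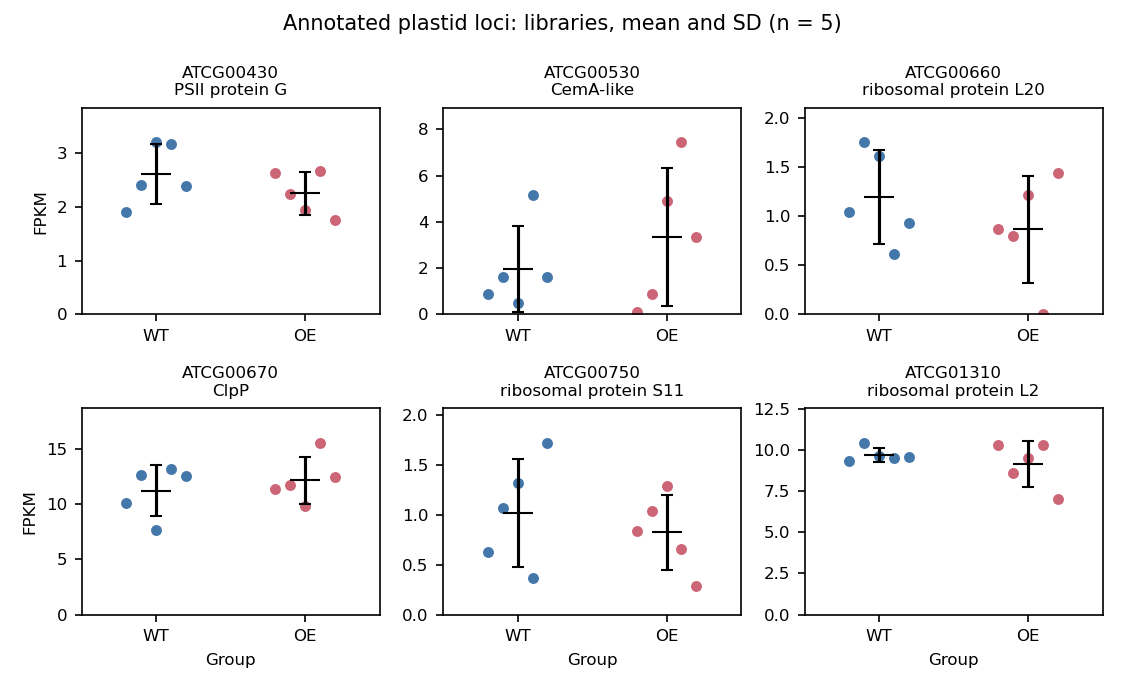
FPKM (y axes, linear from 0) of the 6 plastid loci with a product noted in RefSeq, in the 5 WT (blue) and 5 OE (red) libraries, with the mean and SD of each group. The groups overlap in all 6, and the widest spread relative to the mean is that of ATCG00530, from 0.103 to 7.44 FPKM.

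The comparison of OE with WT asks which transcripts differ in plants with the transgene, and over the plastid genome no locus passed the test on the values as deposited. With limma on log2(FPKM + 1) and Benjamini-Hochberg adjustment over 17713 genes, 0 of the 57 tested plastid loci were higher and 0 were lower at an adjusted p under 0.05, where 2.37% of all tested genes were higher and 0.525% lower. At an unadjusted p under 0.05, 0 plastid loci passed in either direction, against 9.89% of all tested genes higher and 5.26% lower. The groups did not separate for any of the 57, against 4.41% of all tested genes with every OE library above WT and 1.42% with every OE library below. The median log2 difference, OE minus WT, was 0.07 over the 57 loci, with 36 above 0, and 0.00 over all tested genes. The 57 include 4 loci above 0 in 1 library only, which met the limit through that library and take their sign from it. Over the 44 tested loci above 0 in all libraries the median was 0.07, with 28 above 0. With 1 locus of each copied pair kept, 33 of the 49 loci then tested were above 0, with a median of 0.09. The smallest adjusted p was 0.410, for ATCG00420 (log2 difference 0.43, SE 0.23).

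The precision differed between plastid loci. Over the 44 tested loci above 0 in all libraries the SE of the log2 difference had a median of 0.29 and a range of 0.10 to 0.60, against a median of 0.11 over all tested genes. For ATCG01310, the steadiest annotated locus, the log2 difference was −0.09 with a 95% interval from −0.30 to 0.13. For ATCG00670, the ClpP locus, it was 0.12, with an interval from −0.21 to 0.45. For ATCG00960 it was 0.07 with an interval from −0.94 to 1.08, and for ATCG00970 it was −0.35 with an interval from −1.67 to 0.97, so in these high loci a 1.5-fold change in either direction lay inside the interval. For ATCG00020 the difference was 0.03, with an interval from −1.03 to 1.10.

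The sign of the median difference rested on OE 4. Without OE 4 it was −0.13 over 56 tested loci, with 15 above 0, and again 0 passed the adjusted threshold. Without WT 5 it was −0.01 over 58 loci. No plastid locus passed under any left-out library, where the smallest adjusted p was 0.232, for ATCG00140 without OE 4.

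After scaling, the comparison asks whether a locus took a larger or smaller part of the plastid total in OE. Each library's plastid values were multiplied so that the plastid totals became equal, and the same model was fitted. Again 0 of the 57 loci were higher and 0 lower at an adjusted p under 0.05 (2.36% and 0.531% of all tested genes). At an unadjusted p under 0.05, 2 loci were higher and 0 lower, against 9.90% and 5.26% of all tested genes. ATCG00330 had a log2 difference of 1.20 (SE 0.40, adjusted p = 0.162) and ATCG00490 one of 0.81 (SE 0.37, adjusted p = 0.329). As deposited, the differences of these 2 loci were 0.63 and 0.21.

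The scaled differences were mostly above 0, with a median of 0.55 and 51 of 57 above 0. Among the 44 tested loci above 0 in all libraries, with copies counted separately, 43 were above 0 and ATCG00140 was below (−0.14). With 1 locus of each copied pair kept, 44 of the 49 loci then tested had a scaled difference above 0, with a median of 0.62. This shift went with the totals used for the scaling. WT 2 and WT 4, whose totals were made up mostly by ATCG00010, ATCG00990 and ATCG01140, were divided by the 2 largest totals, which lowered all their other plastid loci. With the total of the loci above 0 in all libraries as divisor the median was 0.09, with the total of such loci under 100 FPKM it was −0.00, and with the median ratio over plastid loci it was 0.04. With WT 2 and WT 4 left out and scaling to the total over all plastid loci it was 0.02. Under each of these 4 alternatives 0 plastid loci passed the adjusted threshold.

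**Figure D4:**
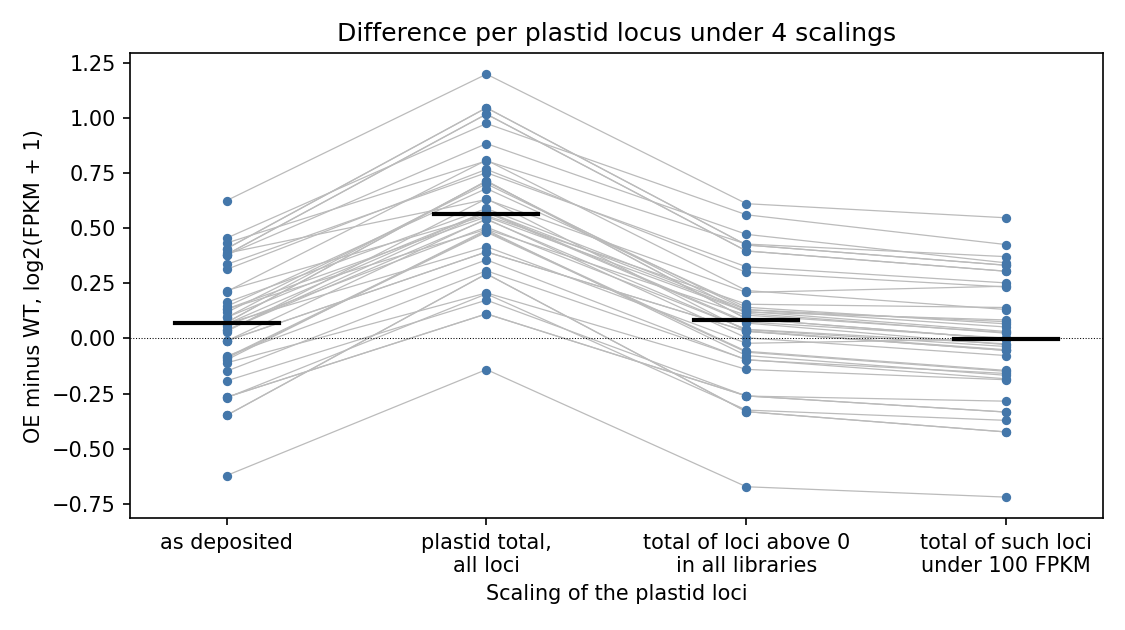
Log2 difference, OE minus WT, of log2(FPKM + 1) (y axis) for each tested plastid locus above 0 in all libraries under 4 scalings of the plastid values (x axis). Grey lines join the values of a locus and bars are medians. The points move up together under scaling to the total over all plastid loci and move back down with the other totals. Single loci stay away from 0 there, such as ATCG00140 (−0.67 and −0.72) and ATCG00330 (0.61 and 0.55).

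Single loci moved with the choice of total in the same way. The log2 difference of ATCG00330 was 0.63 as deposited, 1.20 scaled to the plastid total, 0.61 scaled to the loci above 0 in all libraries and 0.55 scaled to such loci under 100 FPKM. Its values as deposited were 6.41, 15.4, 3.84, 8.84 and 4.03 FPKM in WT 1 to WT 5 and 4.26, 7.73, 11.4, 29.8 and 13.5 FPKM in OE 1 to OE 5, with OE 4 highest and the groups overlapping. Among the 44 tested loci above 0 in all libraries, ATCG00140 lay at the other end, with −0.62, −0.14, −0.67 and −0.72 under the same 4 scalings. Its values were 11.4, 23.5, 7.94, 5.61 and 9.59 FPKM in WT and 3.02, 5.51, 3.04, 21.5 and 8.27 FPKM in OE, where WT 2 and OE 4 were the highest of their groups. Neither difference passed the test under these scalings. Over all tested plastid loci the extremes as deposited were ATCG00010 (−2.95) and ATCG00090 (2.36), each above 0 in 1 library only.

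Nuclear genes that act on plastid gene expression were largely without calls. Of 32 such genes tested, 1 was higher in OE at an adjusted p under 0.05 (3.12%, against 2.37% of all tested genes) and 0 lower (0.525% of all), a count near the background. The median log2 difference was 0.08, against 0.00 over all tested genes. The gene that rose was FLN1 (AT3G54090), a fructokinase-like protein attached to the plastid-encoded polymerase, at 33.9 ± 3.05 FPKM in WT, against 44.4 ± 3.17 FPKM in OE (SD, n = 5 each; log2 difference 0.38, SE 0.08, adjusted p = 0.0229 by limma). This call was lost without WT 2, OE 2, OE 4 or OE 5. All 12 polymerase-associated proteins of the list had a difference above 0, with a median of 0.18, where 8990 of all 17713 tested genes were above 0, but FLN1 alone among the 12 passed the adjusted threshold. Of the others, TRXZ (AT3G06730), a thioredoxin of the same complex, was at 57.8 ± 6.66 and 71.1 ± 5.38 FPKM (adjusted p = 0.0987).

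None of the 6 sigma factors and neither phage-type polymerase passed. SIG5 (AT5G24120), a sigma factor induced by light and stress, was at 2.74 ± 0.512 FPKM in WT, against 1.85 ± 0.717 FPKM in OE (SD, n = 5 each; adjusted p = 0.298 by limma). RPOTP (AT2G24120), the phage-type plastid polymerase, was at 13.6 ± 1.66 and 17.0 ± 1.99 FPKM (adjusted p = 0.155). Of 12 genes for plastid RNA processing and stability 0 passed, with a median difference of 0.03.

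Of 34 nuclear genes for partner subunits of the plastid complexes, 1 was higher in OE (2.94%, against 2.37% of all tested genes) and 0 lower (0.525% of all), again near the background, with a median log2 difference of −0.04 and 26 below 0. The one that rose was RBCS1B (AT5G38430), a Rubisco small subunit gene, at 2646 ± 312 FPKM in WT, against 3521 ± 163 FPKM in OE (SD, n = 5 each; log2 difference 0.42, SE 0.08, adjusted p = 0.0148 by limma). The call was lost without OE 2. RBCS1A, the most abundant gene of the family, was at 21381 ± 1392 and 21345 ± 1131 FPKM, and RBCS3B (AT5G38410) at 11126 ± 441 and 11098 ± 546 FPKM. RBCS2B (AT5G38420) was at 4589 ± 80.4 and 5193 ± 290 FPKM (adjusted p = 0.0670 by limma). Every OE library lay above every WT library for RBCS2B, as for 4.41% of all tested genes. The small subunit genes are similar in sequence, so how fragments were divided between them is uncertain. In 12 photosystem I genes the median was −0.09 with 0 passing, and in 11 photosystem II genes it was −0.07 with 0 passing.

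The mitochondrial genome, the other organelle genome, gave another order of the libraries. Its 152 loci made up 0.00693% ± 0.00563 of the summed FPKM in WT and 0.0243% ± 0.0158 in OE (SD, n = 5 each), and the groups overlapped. The overlap came from OE 1 (0.00327%), which lay below every WT library. OE 2 to OE 5 (0.0182, 0.0223, 0.0326 and 0.0454%) lay above the highest WT library, WT 3 (0.0170%). The highest mitochondrial share was in OE 5 (0.0454%), whereas the highest share over all plastid loci was in WT 4 (4.28%). Over the plastid loci present in all libraries alone, OE 4 was highest. OE 1 was lowest for both genomes. Of the 6 mitochondrial loci tested, 0 passed in either direction by limma, and 1 was higher at an unadjusted p under 0.05, against 9.89% of all tested genes, so that 1 of 6 says little. That locus was ATMG01380 (log2 difference 4.82, SE 1.75, adjusted p = 0.203 by limma).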

How the data were processed

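The deposited table gives FPKM per gene and library, which the authors scaled by transcript length and library depth. The submitters' processing notes name kallisto 043.1, sleuth, R 3.5.1, FastQC and Trimmomatic 0.36 with no role for each. Genome build, annotation and transcript lengths are not given in these sources. Libraries were grouped by their titles. Plastid loci were all those whose code begins with ATC, mitochondrial loci those beginning with ATM.

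From these values, totals, shares, coefficients of variation and covariances were computed without a test. For OE against WT, log2(FPKM + 1) over the whole table was modelled with limma 3.58.1 (R 4.3.3), with a trend of the variance with the mean, two-sided, for 17713 genes with a mean of at least 1 FPKM. P-values were adjusted by Benjamini-Hochberg over all of them, with a threshold of 0.05. Differences given as log2 refer to log2(FPKM + 1), so changes of low loci are understated. A second fit multiplied the plastid values of each library by the mean plastid total over that library's plastid total. The fit was tested on simulated data in which each gene was drawn independently from a normal distribution on the log scale. Shifts shared by the plastid loci of a library and copied pairs were not simulated, so that test says little about the plastid loci. Depth was estimated from steps between low values. Python 3.11.15 and matplotlib 3.10.9 drew the figures.

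The members and gene lists were chosen with earlier results of these data known. The loci named were, by rule, the 10 plastid loci of highest mean, the 6 carrying most of the within-group spread of the total, up to 10 past the threshold in each direction, the tested loci of most extreme difference, and the annotated ones. ATCG00020, ATCG00140, ATCG00330, ATCG00420, ATCG00470, ATCG00490, ATCG00830, ATCG00905, ATCG00950, ATCG01180 and ATCG01230 were named after their values were seen. Lists of plastid genes by class were not used, since the codes could not be paired with symbols. Alternatives were a pseudocount of 0.1 or 0.5, a filter at 5 FPKM or none, no trend, the replicate number as a block, sample weights, other scalings, and omission of each library. Added after the data were seen were totals over loci above 0 in all libraries, omission of WT 2 and WT 4 together, and 1 locus per copied pair.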

Additional observations from a re-analysis of the deposited data

Results flagged for a closer look

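In 62 groups of 5 libraries checked for a value far from the others, 13 were found, 5 of them in OE 4. Chance alone gives about 1 in 20 independent groups, but many of the loci checked were named for their spread or after their values were seen, and copied pairs count double, so the number found cannot be read against that rate.

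Of these, 4 were plastid loci seen in 1 library of all 10: ATCG00010 in WT 2 (27532 FPKM), ATCG00090 in OE 5 (3625 FPKM), and ATCG00990 and ATCG01140 in WT 4 (14718 FPKM each), with 0 in the others. ATCG00640 was at 7.85 FPKM in WT 2 and at 0 in the other WT libraries, but was above 0 in OE 3 and OE 5. ATCG01020 was at 60.3 FPKM in WT 4 and at 0 in the other WT libraries, but was above 0 in 3 OE libraries.

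In OE 4, ATCG00970 and ATCG01160 were at 5993 FPKM each, where the nearest OE library was at 1443 FPKM. ATCG00140 was at 21.5 FPKM there (nearest 8.27) and ATCG00420 at 5.83 FPKM (nearest 2.70). The sum of the 50 lower loci was 530 FPKM in OE 4, against 250 FPKM in the nearest OE library.

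In WT 4, ATCG00530, the CemA-like locus, was at 5.16 FPKM, and the nearest WT library was at 1.62 FPKM. The mitochondrial share of WT 3 was 0.0170%, and the nearest WT library was at 0.00528%.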

How the results depend on the processing

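As deposited, the count of plastid loci past the adjusted threshold was 0 in each direction under every alternative run. Scaled to the plastid total, it was 2 higher with the replicate block (ATCG00905, log2 difference 0.88, adjusted p = 0.0263, and ATCG01230, 0.97, adjusted p = 0.0286) and ranged from 0 to 1 with each library left out. The 1 was ATCG00330 without WT 1 (log2 difference 1.57, adjusted p = 0.0176), of 58 plastid loci tested there. In that fit 535 of all 17711 tested genes passed in either direction. The count of loci with all OE libraries above WT after scaling ranged from 0 to 3 with each library left out. With all 10 libraries, 4.41% of all tested genes separated in this direction, and the share with a library left out is not given here. The 0 to 3 is therefore not read as a result about plastid loci. The causes were not tested. ATCG00905 and ATCG01230 had exactly the same scaled difference, 0.57, when OE 1 was left out, so the 2 may not be separate measurements. Whether libraries of the same replicate number belong together is not stated. The correlations of same-numbered libraries were 0.20, −0.04, −0.09, 0.07 and 0.18, and only numbers 1 and 5 correlated best with themselves. These values do not settle whether the libraries are paired. The block moved the count over all genes from 512 to 781.

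The share difference between the groups ranged from −1.43 to −0.50 percentage points with each library left out, but was 0.22 without both WT 2 and WT 4. The share of the spread carried by loci above 0 in 1 library ranged from 56.4% to 84.0%. The median scaled difference ranged from 0.30 to 0.86, and was 0.67 with the highest locus left out of the total. Nuclear genes for plastid gene expression past the threshold in OE were 2 with the replicate block (FLN1 and TRXZ) and 0 to 1 with each library left out. With the block 781 of all 17713 tested genes passed in either direction, so the 2 are not read as a result about this list. Partner subunit genes were 0 to 2, the second being RBCS2B without OE 4. In that fit 273 of all 17699 tested genes passed in either direction. RBCS2B also passed with all libraries and the filter at 5 FPKM (log2 difference 0.18, adjusted p = 0.0388 by limma), where 594 of all 12550 tested genes passed. Mitochondrial loci were 0 to 1, the 1 being ATMG01380 without OE 1, where 362 of all 17706 tested genes passed in either direction. Over all genes, the count as deposited fell to 207 without OE 2, 273 without OE 4, 277 without WT 5 and 291 without WT 2, from 512. The share of fragments was not run, since transcript lengths by plastid code were not known. Loci near 1 FPKM rest on few fragments, so their values are limited by depth.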
